A study of Homo sapiens with 4 samples.

Results

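Laminins are the cross-shaped glycoproteins on which basement membranes are built, and each is a trimer of 1 α, 1 β and 1 γ chain joined through a coiled coil. The α chain carries the globular end that cells grip through integrins and dystroglycan, and trimers assemble into a sheet through short arms of the chains. In the intestine, laminin-511 and laminin-521 underlie the epithelium, laminin-332 anchors epithelial cells through hemidesmosomes, and laminin-111 is the main laminin of tumor-derived basement membrane gels. The genes described here are 9 laminin subunits of 19729 genes in the deposited files, chosen by symbol: the α chains LAMA1 to LAMA5, the β chains LAMB1 to LAMB3 and the γ chain LAMC1. They were matched by Ensembl identifier to GENCODE v29 symbols, and all 9 were found.

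RNA-Seq was performed on HT-29 cells, a microsatellite-stable colorectal cancer line with mutant BRAF (V600E) and truncated APC. All cells had been transduced with a lentivirus whose short hairpin RNA (shRNA) is switched on by doxycycline (DOX), were at passage 3 to 5 thereafter, and received 500 ng/ml DOX for 72 h. The hairpin was directed against APC in 2 libraries (APC shRNA I and II) and was non-silencing in the other 2 (NonS I and II), so the control also carried the vector and received DOX. Paired values are given in the order I, II. The model is 1 cell line without stroma, and the RNA-Seq contrasts a single APC hairpin with its control. The p-values rest on the spread between duplicates, which limma pools in part over genes, and cover no other line or hairpin.

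The deposited values are whole numbers that vary less between duplicates than read counts would, and they are treated as scores of unstated scale. They sum to between 398338 and 413595 per library, which is no read depth, so the depth and the counting error behind each value are unknown. The targeted gene was too low to check the labels: APC was listed at 3 in NonS I and at 0 in the other libraries. The Wnt target AXIN2 was listed at 16 and 22 with NonS, against 124 and 178 upon APC silencing. The xylosyl- and glucuronyltransferase LARGE2, which builds the laminin-binding glycan on dystroglycan, was listed at 2 and 1 with NonS, against 27 and 32 upon APC silencing. All 7 colonic epithelial markers examined were above 0 in some library, EPCAM, CDH1, KRT8, KRT18, KRT20, VIL1 and CDX2, and they summed to 3260 to 4160 per library, but the intestinal transcription factor CDX2 was at 0 with NonS, against 2 and 4 upon APC silencing. Of the other cell types, 0 of 6 fibroblast markers, 0 of 4 endothelial markers, 2 of 3 smooth muscle markers (ACTA2 and MYH11, at 1 or less) and 1 of 4 blood cell markers were above 0, and the highest of these values was 4 (CD14, a monocyte gene, at 3 and 4 with NonS, and 1 and 2 upon APC silencing).

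By these RNA values the laminin repertoire of HT-29 cells was restricted. LAMA5 was the predominant α chain, and LAMB3 and LAMB1 were the leading β chains. LAMB2, LAMC1 and LAMA3 were lower, with means that exceeded those of 46.6%, 49.5% and 31.1% of the genes above 0. LAMA1, LAMA2 and LAMA4 were listed at 0 in all 4 libraries. On silencing of APC, 0 of the 3 laminin genes tested passed the test (adjusted p under 0.05 in limma). Beside them, 4.33% of all genes tested were called higher and 3.70% lower. The test had little reach with 2 libraries per condition. LARGE2, 19.7-fold higher in the ratio of means, had an adjusted p of 0.0423 in limma, the smallest of all genes tested. At the study's thresholds (adjusted p under 0.01, fold over 4) this fit called 0 genes higher and 0 lower. A gene not called is thus not shown to be unchanged. LAMB1 was 1.67-fold and LAMB2 1.60-fold higher in the ratio of means, with no overlap of the libraries. Such separation was common, upward in 33.0% and downward in 27.5% of all genes tested. LAMB2 was too low to be tested, and 27.4% of genes with a mean from 5 to under 10 were separated upward. The values of LAMA5, LAMB3 and LAMA3 overlapped between the conditions.

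Of the 9 genes, 3 reached the mean of 10 that was required for testing, another 3 were above 0 but under it, and 3 were at 0. For the genes tested, log2(value + 1) was compared between conditions with limma, a linear model with moderated variances fitted to all 5376 genes above the same limit, and p-values were adjusted by the Benjamini-Hochberg method over all of them. A difference on this scale understates the change of low genes. None of the 3 laminin genes was called at an adjusted p under 0.05, and 0 of the 3 had an unadjusted p under 0.05 in limma. Bulk RNA values cannot separate fewer expressing cells from less RNA per cell.

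Among the α chains, LAMA5 (ENSG00000130702) is the subunit of laminin-511 and laminin-521. It lies on chromosome 20 of GRCh38 from 62307955 to 62367312, on the minus strand, and its longest transcript has 11426 bases. LAMA5 was listed at 30 and 35 with NonS, against 30 and 27 upon APC silencing. Its mean exceeded that of 84.1% of the genes above 0, and the conditions met at a value of 30. The means were 32.5 ± 3.54 (SD, n = 2) with NonS, against 28.5 ± 2.12 (SD, n = 2) upon APC silencing. The log2 difference was -0.18 (95% interval -0.54 to 0.17, adjusted p = 0.337 in limma), and it was -0.29 without NonS I and -0.07 without NonS II. After scaling to equal totals the values were 30.8 and 34.8 with NonS, against 29.7 and 26.8 upon APC silencing, and no longer overlapped. Of the exonic bases of LAMA5, 244 overlap exons of ADRM1 on the opposite strand, and the strand setting of the counting is not given in the sources used here.

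LAMA3 (ENSG00000053747), the α chain of laminin-332, lies on chromosome 18 from 23689443 to 23956222 on the plus strand. Its values were 3 and 4 in NonS and 3 and 4 in APC shRNA libraries, so the means were equal at 3.5, with an SD of 0.707 in each condition (n = 2). At this level whole-number steps are large: if each value was rounded to the nearest whole number, a ratio of means from 0.75 to 1.33 would be compatible with the values listed. LAMA3 was too low to be tested.

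The remaining α chains were listed at 0 throughout. LAMA1, the chain of laminin-111, spans chromosome 18 from 6941744 to 7117814. LAMA2, the chain of muscle laminin, spans chromosome 6 from 128883141 to 129516569, and LAMA4, a chain of vascular and mesenchymal laminins, spans chromosome 6 from 112108760 to 112254939. On a rounded scale a value of 0 leaves room for low expression. The paper reports LAMA2 peptides, by mass spectrometry of enriched glycoproteins, in HT-29 cells overexpressing LARGE2 but not in their controls. From this it concludes that the line does express LAMA2, a protein measurement in samples other than these.

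LAMA5 made up between 87.1% and 90.9% of the summed α chain values in every library, with LAMA3 as the rest. The share of LAMA5 was 90.3% ± 0.824 (SD, n = 2) with NonS, against 89.0% ± 2.70 (SD, n = 2) upon APC silencing. Such shares compare levels between genes on the deposited scale, which behaves as if divided by transcript length. After multiplying each value by the length of the longest transcript, the share of LAMA5 lay between 87.9% and 91.5%.

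Among the β chains, LAMB1 (ENSG00000091136) contributes to laminin-511 and laminin-111. It lies on chromosome 7 from 107923799 to 108003255 on the minus strand. LAMB1 was listed at 13 and 11 with NonS, against 24 and 16 upon APC silencing. The conditions were separated, with a gap of 3 between the higher NonS and the lower APC shRNA library. The means were 12 ± 1.41 (SD, n = 2) and 20 ± 5.66 (SD, n = 2). The log2 difference was 0.67 (standard error 0.24, 95% interval -0.09 to 1.43), which did not pass the test (adjusted p = 0.17 in limma). With replicate number added to the model the standard error was 0.12 and the adjusted p 0.0723 in limma. With GC content correction as well, LAMB1 was called (adjusted p = 0.0168 in limma), in 1 of 13 alternatives that left out no library. Of the genes tested, 6.23% had a higher difference than LAMB1. LAMB1 was thus the 1 gene of the 3 tested that was separated upward, a share like the 33.0% of all genes tested. The difference of LAMB1 was 0.39 when APC shRNA I was left out and 0.95 when APC shRNA II was left out. LAMB1 shares 70 exonic bases with DLD and 221 with the antisense gene AC005046.1, both on the opposite strand.

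LAMB2 (ENSG00000172037), the β chain of laminin-521, lies on chromosome 3 from 49121114 to 49133118 on the minus strand. LAMB2 was listed at 4 and 6 with NonS, against 7 and 9 upon APC silencing. As for LAMB1, the conditions did not overlap, here by a single unit. The means of 5 ± 1.41 (SD, n = 2) and 8 ± 1.41 (SD, n = 2) give a ratio of 1.60, or from 1.36 to 1.89 if the values were rounded to the nearest whole number. Among the 2331 genes with a mean from 5 to under 10, 27.4% were separated upward. With the limit lowered to a mean of 5, the log2 difference of LAMB2 was 0.60 and its adjusted p was 0.221 in limma.

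LAMB3 (ENSG00000196878), the β chain of laminin-332, lies on chromosome 1 from 209614870 to 209652466 on the minus strand. LAMB3 was listed at 17 and 27 with NonS, against 19 and 22 upon APC silencing. The NonS libraries enclosed the APC shRNA libraries, so the spread between duplicates exceeded the difference between the conditions. The means were 22 ± 7.07 (SD, n = 2) and 20.5 ± 2.12 (SD, n = 2). The log2 difference was -0.07 (95% interval -0.91 to 0.77, adjusted p = 0.876 in limma), and it turned to 0.25 without NonS II and to 0.03 without APC shRNA I.

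The γ chain LAMC1 (ENSG00000135862) is shared by laminin-511, laminin-521 and laminin-111. It lies on chromosome 1 from 183023460 to 183145592 on the plus strand. LAMC1 was listed at 6 and 7 with NonS, against 7 and 9 upon APC silencing. The conditions met at a value of 7, and the means were 6.5 ± 0.707 (SD, n = 2) and 8 ± 1.41 (SD, n = 2). The ratio of means was 1.23, and rounding alone allows 1.07 to 1.42. With the limit lowered to a mean of 5, the log2 difference was 0.26 with an adjusted p of 0.362 in limma.

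The composition of the β chains was examined next, since each trimer takes 1 β chain. LAMB3 made up 50% and 61.4% of the summed β chain values with NonS, against 38% and 46.8% upon APC silencing. The mean share differed by -13.3 percentage points, without overlap. The LAMB3 values themselves overlapped, with means of 22 and 20.5, whereas LAMB1 and LAMB2 in the same sum were higher upon APC silencing. LAMB1 took 38.2% and 25% with NonS, and 48% and 34.0% with the hairpin against APC, which overlap. LAMB2 took 11.8% and 13.6% with NonS, and 14% and 19.1% upon APC silencing, without overlap. An exact two-sided permutation test of 2 libraries against 2 cannot give a p under 0.333, and this was the p for LAMB3 and for LAMB2, whereas it was 0.667 for LAMB1 (adjusted over the 5 α and β chain shares, 0.833, 0.833 and 1). When values were multiplied by transcript length, the LAMB3 share was 48.6% ± 8.17 (SD, n = 2) with NonS, against 35.6% ± 5.88 (SD, n = 2) upon APC silencing, again without overlap, and the LAMB2 shares overlapped.

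**Figure D1:**
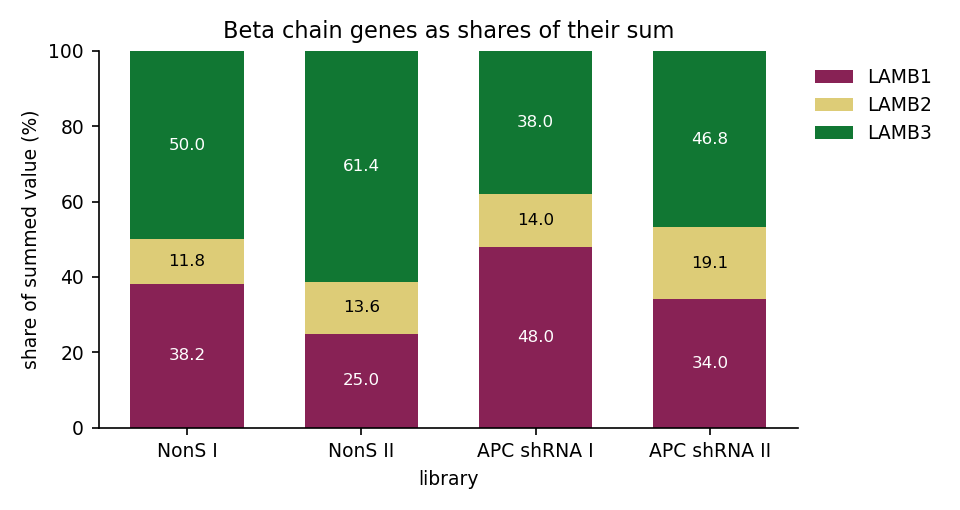
Shares of LAMB1, LAMB2 and LAMB3 in the sum of their deposited values (vertical axis, percent) in each of the 4 libraries (horizontal axis), with each share printed in its segment. LAMB3 takes 50% and 61.4% with NonS, and 38% and 46.8% with APC shRNA.

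The subunits were then grouped into the trimers they can form, and the lowest member chain of each was read per library, as an RNA value that says nothing of assembled protein. For laminin-511 the lowest chain was LAMC1 in all 4 libraries, at 6 and 7 in NonS and 7 and 9 in APC shRNA libraries. For laminin-521 it was LAMB2 at 4 and 6 in NonS libraries, and LAMB2 and LAMC1 were level at 7 and at 9 in APC shRNA libraries. LAMB2 was 0.667 and 0.857 times LAMC1 with NonS and listed level with it in both APC shRNA libraries (exact two-sided permutation p = 0.333, the smallest possible), but the ranges that rounding to whole numbers allows overlapped, up to 1 in NonS II and down to 0.867 in APC shRNA I. For laminin-332, of which LAMA3 and LAMB3 are analysed here, LAMA3 was the lowest at 3 or 4, and LAMB3 exceeded it between 5.5- and 6.75-fold. For laminin-111 the lowest chain was LAMA1, at 0.

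Of 7 ratios between chains, 3 were separated as listed. Several ratios share a chain, so they are not independent results. No share over other pairs of genes was computed beside this count. LAMA5 was 5 times LAMC1 in both NonS libraries, and 4.29 and 3.00 times in APC shRNA I and II, but with rounding the ratio could be as low as 4.54 in NonS I and as high as 4.69 in APC shRNA I, so the separation is not beyond the precision of the values. The ratio of LAMB1 to LAMA5 was 0.433 and 0.314 with NonS, and 0.8 and 0.593 upon APC silencing. This ratio was separated upward also over its rounding ranges. The exact two-sided permutation p of all 3 was 0.333 (adjusted over the 7 ratios, 0.778). The other 4 ratios overlapped. The ratio of LAMB1 to LAMC1 was 2.17 and 1.57 with NonS, and 3.43 and 1.78 upon APC silencing, and that of LAMA5 to LAMA3 was 10 and 8.75 with NonS, and 10 and 6.75 upon APC silencing. The ratio of LAMB1 to LAMB2 was 3.25 and 1.83 with NonS, and 3.43 and 1.78 upon APC silencing, so that it differed between replicate numbers and overlapped between conditions. LAMB1 was lower in replicate II than in replicate I by 2 in NonS and by 8 in APC shRNA libraries, whereas LAMB2, LAMB3, LAMC1 and LAMA3 were higher in replicate II in both conditions. LAMA5 was higher in replicate II by 5 in NonS and lower by 3 in APC shRNA libraries.

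Genes with the most similar profile over the 4 libraries were sought among all genes tested, by Euclidean distance of centred log2(value + 1) values. With 4 libraries and whole-number values such likeness is a description. C1orf35, AKAP13 and RAI1 were nearest to LAMA5, at distances of up to 0.0586. TJP3, a tight junction scaffold gene, CARD19 and AL603832.3 were nearest to LAMB3. MTRNR2L3, CHD6 and MTRNR2L1 were nearest to LAMB1, and the MTRNR2L genes are near-identical copies of mitochondrial rRNA sequence, so their values are uncertain. MTRNR2L3 was listed at 48 and 41 with NonS, against 79 and 51 upon APC silencing.

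To show where TCF/LEF factors, through which Wnt signals reach DNA, could meet these genes, promoters were searched for the letters CTTTGAT, then for CTTTGTT, then for CTTTGAA and finally for CTTTGTA, on both strands. RefSeq promoters (GRCh38.p14, the 250 bases before a start) were at hand for 8 of the 9 genes, all but LAMA1, with 10 starts in all, 3 of them of LAMB3 and the one of LAMA3 at an internal start. A match was present in 1 of the 10 windows, that of LAMA2, a gene listed at 0. Of all 35116 promoters in the table, 4199 (11.96%) held a match. The promoters of LAMB1 and LAMB2 are shown because these were the genes whose libraries did not overlap, and that of LAMA2 because it holds the match, marked in capitals. All 3 read 5′ to 3′ along the gene, at chr7:108003162-108003411 (minus strand), chr3:49133051-49133300 (minus strand) and chr6:128882888-128883137 (plus strand).
LAMB1: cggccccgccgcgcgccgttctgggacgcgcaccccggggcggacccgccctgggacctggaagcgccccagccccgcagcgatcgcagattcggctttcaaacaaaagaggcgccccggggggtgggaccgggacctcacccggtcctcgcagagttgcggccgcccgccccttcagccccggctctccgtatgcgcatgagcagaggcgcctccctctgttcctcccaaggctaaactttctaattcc
LAMB2: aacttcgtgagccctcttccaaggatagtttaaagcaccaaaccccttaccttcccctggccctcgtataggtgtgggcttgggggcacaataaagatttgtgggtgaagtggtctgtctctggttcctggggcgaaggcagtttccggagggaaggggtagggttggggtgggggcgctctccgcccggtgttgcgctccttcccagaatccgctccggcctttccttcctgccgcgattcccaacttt
LAMA2: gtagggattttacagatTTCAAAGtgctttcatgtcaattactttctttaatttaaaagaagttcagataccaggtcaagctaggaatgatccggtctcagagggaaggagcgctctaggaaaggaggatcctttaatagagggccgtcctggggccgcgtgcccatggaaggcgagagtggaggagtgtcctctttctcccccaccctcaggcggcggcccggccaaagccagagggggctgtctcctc
The LAMA2 match begins 233 bases before the start and reads CTTTGAA on the opposite strand. The LAMB1 window has a GC content of 70.4%, that of LAMB2 58.4% and that of LAMA2 53.2%. A match is a run of letters and no evidence of binding, and sites outside these windows were not searched.

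The partners of laminin in the basement membrane were compared in the same fit. Of 16 partner genes, 5 were above 0, 2 were tested, 0 were called higher and 1 was called lower, beside 4.33% and 3.70% of all genes tested (median log2 difference of the 2, -0.66, against 0.03 over all genes tested). HSPG2, which encodes perlecan, a heparan sulfate proteoglycan that binds laminin, was listed at 63 and 80 with NonS, against 25 and 28 upon APC silencing. It fell by 1.39 on the log2 scale (standard error 0.16, adjusted p = 0.0465 in limma). AGRN, which encodes agrin, a bridge from laminin to dystroglycan, was listed at 131 and 191 with NonS, against 145 and 188 upon APC silencing, without separation. COL18A1, the basement membrane collagen that gives rise to endostatin, was listed at 2 and 3 with NonS, against 12 and 15 upon APC silencing, a ratio of means of 5.40, but its mean was too low for the test. Under looser limits its log2 difference was 2.06, and it was not called (adjusted p from 0.0519 to 0.0536 in limma). NTN4, a netrin related to laminin short arms, was listed at 5 in each NonS library, against 4 and 3 upon APC silencing. The type IV collagen chains were at 0 but for COL4A2 at 1 or 2, and the laminin-to-collagen linkers NID1 and NID2 were at 0.

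Among 12 laminin receptor genes, 11 were above 0 and 9 were tested, of which 0 were called higher and 1 lower, beside 4.33% and 3.70% of all genes tested. The median log2 difference of the 9 was -0.32, against 0.03 over all genes tested. ITGA6, the α subunit of the laminin-binding integrins α6β1 and α6β4, was listed at 65 and 74 with NonS, against 19 and 12 upon APC silencing. It fell by 2.13 on the log2 scale (standard error 0.26, adjusted p = 0.0483 in limma). BCAM, the Lutheran glycoprotein that binds the laminin α5 chain, was listed at 37 and 57 with NonS, against 96 and 122 upon APC silencing. Its libraries were separated upward, with a log2 difference of 1.22 that did not pass the test (adjusted p = 0.093 in limma). The values of LAMA5, which encodes the chain that BCAM binds, overlapped between the conditions, as given above. CD151, a tetraspanin partner of laminin-binding integrins, was listed at 165 and 190 with NonS, against 150 and 168 upon APC silencing, and the syndecan SDC1 at 99 and 115, against 79 and 92. Neither passed the test. DAG1, which encodes dystroglycan, was listed at 26 and 29 with NonS, against 28 and 32 upon APC silencing (adjusted p = 0.47 in limma). DAG1 and the following gene were named after their values were seen. ITGA3, the α subunit of the other main epithelial laminin receptor, was listed at 58 and 89 with NonS, against 31 and 44 upon APC silencing (log2 difference -0.94, adjusted p = 0.149 in limma).

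Hemidesmosomes tie laminin-332 to keratins through integrin α6β4. All 6 genes of this list were above 0, 5 were tested, and 0 were called higher and 1 lower, which is ITGA6 again, beside 4.33% and 3.70% of all genes tested. The median log2 difference of the 5 was -0.63, against 0.03 over all genes tested. ITGB4 was listed at 62 and 81 with NonS, against 45 and 46 upon APC silencing, with a log2 difference of -0.63 that did not pass the test (adjusted p = 0.103 in limma). PLEC, which encodes plectin, was listed at 45 and 57 with NonS, against 44 and 43 upon APC silencing. COL17A1, the transmembrane collagen of hemidesmosomes, named after its values were seen, was listed at 21 and 33 with NonS, against 8 and 10 upon APC silencing (log2 difference -1.46, adjusted p = 0.0724 in limma). LAMB3 and LAMA3, the laminin-332 chains on the other side of this contact, overlapped between the conditions.

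The calls of HSPG2 and ITGA6 lay close to the threshold. So did every call of this fit, whose smallest adjusted p over all genes tested was 0.0423 in limma. With any library left out no gene tested stayed called, HSPG2 and ITGA6 included. Both kept their direction, with differences from -1.56 to -1.22 for HSPG2 and from -2.44 to -1.81 for ITGA6. Both calls were also lost when the limit on the mean was lowered to 5, and that of ITGA6 when at least 10 was asked of every library. The call of ITGA6 was lost too when replicate number was added to the model, which called BCAM higher and ITGA3 and COL17A1 lower.

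Of 7 genes for proteases that trim laminin chains, 4 were above 0 and 1 was tested, with 0 called in either direction, beside 4.33% higher and 3.70% lower among all genes tested. MMP7, matrilysin, was listed at 52 and 74 with NonS, against 37 and 48 upon APC silencing (log2 difference -0.55, adjusted p = 0.227 in limma). With 1 library left out the difference ran from -0.80 to -0.30, the latter without NonS II. The next 2 were too low for the test. BMP1, a procollagen and laminin-332 processing protease, was listed at 5 in each NonS library, against 7 and 8 upon APC silencing. MMP14, a membrane-bound metalloprotease, was listed at 2 and 3 with NonS, against 7 and 9 upon APC silencing.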

How the data were processed

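HT-29 RNA was sequenced as 50 bp single reads, 2 libraries per condition. Per the paper's methods, low quality reads were removed, polyA tails trimmed, reads mapped with TopHat2 to human genome assembly 38 and assigned by htseq-count to GENCODE v29. The submitters' processing notes list hg19, bcl2fastq 2.19.0.316 and DESeq2 1.4.1. Only gene-level values were used, and positions are those of GENCODE v29 on GRCh38. The values deposited by the authors were taken as a score whose scale is not given: over 4632 and 4531 low genes the variance between duplicates was 0.474 (NonS) and 0.345 (APC shRNA) times the Poisson variance, and value times longest transcript in kb summed to 980841 to 984873 in every library. The deposited table of the authors' own comparison (mean over libraries, log2 fold change, ratio, adjusted p-value) was not used.

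log2(value + 1) of genes with a mean of at least 10 entered limma 3.58.1 under R version 4.3.3 (lmFit, then eBayes with its trend option, values as deposited, Benjamini-Hochberg adjustment). The fit was also run on simulated data. These were drawn without any difference shared by replicate number, unlike the libraries here, so that run checks the code only. Shares and ratios used exact permutation tests (scipy 1.17.1). Alternatives covered pseudocounts (0.1 and 5), filters, scaling, moderation, protein-coding genes, a replicate block, GC content (loess, span 0.5) and each library left out. Genes named were the 9 subunits, every called gene of 4 lists with the 3 highest others of each, the 3 nearest profiles of the 3 highest subunits, the label check genes and markers above 0. DAG1, ITGA3, COL17A1, COL4A2, NID1 and NID2 fall outside this rule and were named after their values were seen. The subunits, lists and tests were chosen with earlier results of these data known.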

Additional observations from a re-analysis of the deposited data

How the results depend on the processing

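The 3 laminin genes tested were not called in limma under any alternative but the replicate block with GC content correction, which called 1 laminin gene higher, LAMB1 (log2 difference 0.64, adjusted p = 0.0168 in limma), and 1 lower, LAMA5 (log2 difference -0.33, adjusted p = 0.0336 in limma). Under the other 12 alternatives that left out no library, the adjusted p in limma stayed at or above 0.0723 for LAMB1. The replicate numbers I and II are shared by the labels but are not said to mark a batch or day. Across genes tested, the differences between replicates I and II correlated at 0.724 between the conditions. The replicate block alone raised the genes called from 233 higher and 199 lower to 523 and 500, called 0 laminin genes and 1 laminin receptor gene higher (BCAM), while the call of ITGA6 gave way to those of ITGA3 and COL17A1. LAMB3 reversed to 0.25 without NonS II and to 0.03 without APC shRNA I. Its differences ran from -0.38 to 0.25 over the libraries left out, those of LAMA5 from -0.29 to -0.07 and those of LAMB1 from 0.39 to 0.95. The LAMB3 share of the β chains fell by 7.60 to 19.0 percentage points over the libraries left out.

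No gene at all was called in limma when a library was left out (1119 to 1330 genes with an unadjusted p under 0.05), so the counts of basement membrane partners, laminin receptors and hemidesmosome genes called lower went from 1 to 0 each. They were also 0 with all genes totalling 1 or more and with a mean of at least 5, and the latter 2 lists at 0 with at least 10 in every sample. Receptor genes called higher rose from 0 to 1 (BCAM) with equal totals, upper-quartile scaling, robust moderation and either block. Hemidesmosome genes called lower rose to 2 (ITGA6 and COL17A1) with median-of-ratios, equal-total and upper-quartile scaling and robust moderation. The block with GC content correction gave 5 receptor genes, 5 hemidesmosome genes and 1 protease gene lower, and 1216 genes higher and 1265 lower overall. For these shifts the cause was not tested. Among the filters on low values, genes called ran from 139 higher and 134 lower with at least 10 in every sample to 952 and 515 with every gene. After scaling to equal totals LAMA5 was also separated, downward, beside LAMB1 and LAMB2. Rounding to whole numbers limits LAMB2, LAMC1 and LAMA3, which stayed uncalled in limma under looser filters.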
